A study of Homo sapiens with 12 samples.

Results

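The genes described here are 9 tumour suppressors known for promoter methylation in colorectal cancer, namely MGMT, CDKN2A, CDKN2B, RASSF1, RASSF2, TIMP3, HIC1, RUNX3 and SOCS1. They were chosen by name, and every probe on the array that carried 1 of these symbols was taken, which gave 13 probes of 50599 distinct probes and 9 of 34423 gene symbols. Total RNA of the human colorectal cancer line Colo320DM was labelled with Cy3 on 12 Agilent arrays of a single colour. There were 4 groups of 3 clones: control clones carrying a negative control version (miR-neg) of the pcDNA6.2-GW/EmGFP-miR vector and TET1 knockdown clones carrying that vector with an artificial microRNA against TET1, each profiled on a mock array and on an array of cells given 1 µM 5-aza-dC (5-aza-2'-deoxycytidine) over 72 h, with daily renewal of drug and medium. All 6 lines had been selected with G418 and each was a single GFP-positive colony, so a difference between clone types compares 3 clones with 3 others. Knockdown clones 1 and 2 carried the microRNA named miTET1-1 and knockdown clone 3 a second one, miTET1-2. The same 6 clones were measured with and without the drug. Nothing in the labels says that a group held repeat cultures of a clone, so the errors given here are the spread between clones measured on 1 array each.

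Promoter methylation is a covalent mark on the cytosine of CpG dinucleotides, and a densely methylated CpG island at a gene start is associated with a silent gene. DNA methyltransferases copy the mark at replication. 5-aza-dC is incorporated into DNA, traps these enzymes and lowers methylation in dividing cells, and TET1 oxidises 5-methylcytosine, a step towards its removal. The genes belong to several pathways: CDKN2A and CDKN2B encode inhibitors of the cyclin D kinases, RASSF1 and RASSF2 encode Ras-association scaffolds linked to the Hippo kinases, RUNX3 and HIC1 encode transcription factors, SOCS1 encodes a feedback inhibitor of JAK-STAT signalling, MGMT encodes a DNA repair protein that removes alkyl groups from guanine, and TIMP3 encodes an inhibitor of metalloproteinases. The arrays measured RNA only, and methylation at these genes was not analysed here.

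The bases before the gene starts are shown for the genes on which the results turn, because CpG dinucleotides are where DNA methylation sits. RefSeq (GRCh38.p14) gave 10 windows of 250 bases directly before a start for 8 of the 9 genes. HIC1 had no match. Each sequence is written 5′ to 3′ on the strand of the gene, and capitals mark the dinucleotide CG. SOCS1 (chr16:11256205-11256454, minus strand) was the gene called by the fit over all clones, RASSF2 (chr20:4815148-4815397, minus strand) had the widest range of levels, RUNX3 has a distal start (chr1:24965011-24965260, minus strand) and a proximal start (chr1:24930277-24930526, minus strand), and MGMT (chr10:129466991-129467240, plus strand) had the most CpG and little signal.
SOCS1: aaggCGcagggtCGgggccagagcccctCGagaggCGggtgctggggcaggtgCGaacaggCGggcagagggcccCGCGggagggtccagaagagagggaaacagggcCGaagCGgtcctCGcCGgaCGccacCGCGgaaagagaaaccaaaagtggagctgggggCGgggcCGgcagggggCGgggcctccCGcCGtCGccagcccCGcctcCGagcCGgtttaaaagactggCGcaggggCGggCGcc
RASSF2: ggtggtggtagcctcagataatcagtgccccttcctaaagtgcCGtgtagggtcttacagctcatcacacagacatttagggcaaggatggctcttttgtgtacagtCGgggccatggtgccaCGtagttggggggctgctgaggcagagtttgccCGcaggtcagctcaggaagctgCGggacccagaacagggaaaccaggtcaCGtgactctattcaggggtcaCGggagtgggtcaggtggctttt
RUNX3 distal: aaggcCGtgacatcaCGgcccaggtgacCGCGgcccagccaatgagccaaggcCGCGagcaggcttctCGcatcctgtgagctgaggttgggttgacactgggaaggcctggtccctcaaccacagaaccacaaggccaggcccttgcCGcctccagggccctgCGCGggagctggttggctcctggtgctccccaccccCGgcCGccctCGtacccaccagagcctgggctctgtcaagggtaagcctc
RUNX3 proximal: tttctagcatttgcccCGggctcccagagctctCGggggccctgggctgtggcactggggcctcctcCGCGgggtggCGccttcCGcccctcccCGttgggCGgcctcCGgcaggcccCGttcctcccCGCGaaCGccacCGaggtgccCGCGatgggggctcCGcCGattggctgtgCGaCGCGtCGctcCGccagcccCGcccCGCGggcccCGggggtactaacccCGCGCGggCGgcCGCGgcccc
MGMT: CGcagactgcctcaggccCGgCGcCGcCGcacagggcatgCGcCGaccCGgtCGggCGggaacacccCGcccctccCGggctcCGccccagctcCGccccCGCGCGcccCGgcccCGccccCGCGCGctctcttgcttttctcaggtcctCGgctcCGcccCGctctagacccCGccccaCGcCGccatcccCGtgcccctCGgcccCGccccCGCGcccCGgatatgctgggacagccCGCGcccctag

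The window before MGMT held 36 CG, a number reached by 4.85% of the 35116 windows of the same length in the table. The proximal RUNX3 window held 33 (reached by 8.15% of windows) and the distal one 13 (46.6%). SOCS1 held 27 (17.7%), TIMP3 26 (19.6%), RASSF1 25 (21.6%) and CDKN2B 18 (36.8%). The start of CDKN2A on the ARF side held 24 (23.7%) and the p16 start 20 (32.4%). RASSF2 held 7, fewer than the median window with 11, and 58.9% of all windows held at least as many. RASSF1 and RASSF2 had 1 window each. Which isoform starts there, and whether it is the promoter known for methylation in tumours, was not checked, so these counts may belong to another start. Only the strand shown was read, since CG reads the same on the opposite strand. A count of CG in these letters says nothing about whether the cytosines were methylated in Colo320DM.

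**Figure D1:**
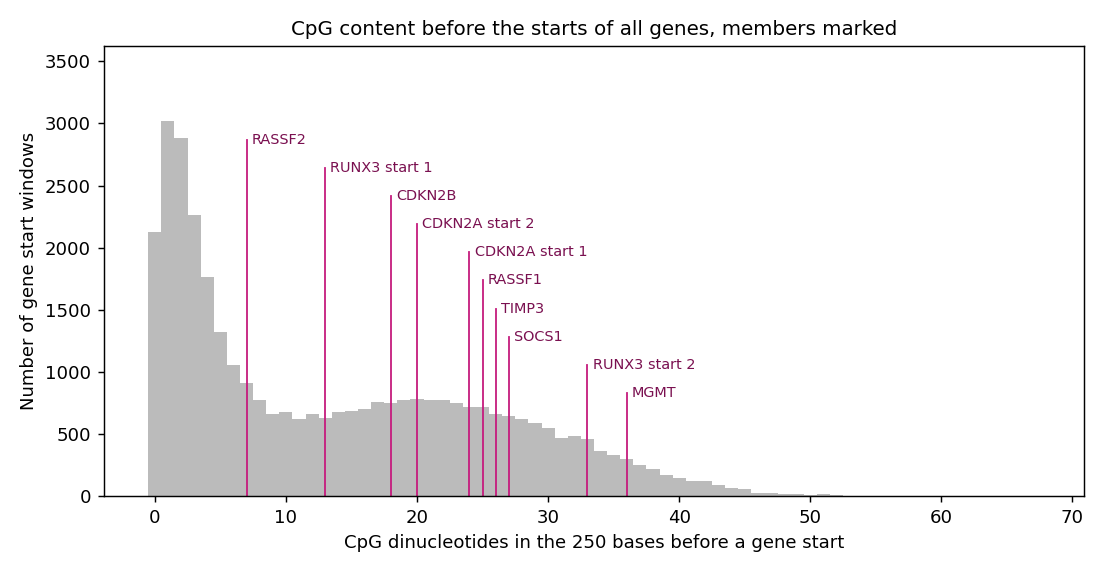
CpG dinucleotides in the 250 bases before a gene start (horizontal axis) against the number of start windows with that count (vertical axis, grey bars, all 35116 windows). Lines mark the 10 windows of the 8 matched genes and their heights carry no value; CDKN2A start 1 is the ARF side and start 2 the p16 side, RUNX3 start 1 is distal and start 2 proximal. RASSF2 lies below the median of 11, and the other 9 windows above it, up to MGMT with 36.

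Values are log2 processed signals minus the 75th percentile of their array, called centred log2 signals below. A probe is well above background on an array where the scanner software marked it so. Over the arrays, 45.7% to 52.87% of probes were well above background, the 75th percentile lay between 240.7 and 359.0 and saturation was not seen. Precision is limited by having 3 arrays in a group. The arrays lay on 2 slides, which were mixed unevenly over the groups: the 5 arrays of slide 2 were all treated control clones, 1 mock control (clone 3) and 1 treated knockdown (clone 2), and the remaining 7 arrays were on slide 1. Slides separated fully on the first principal component, with 43.2% of the variance, so within-slide values stand beside the results. Only control clone 3, knockdown clone 1 and knockdown clone 3 had both of their arrays on 1 slide. TET1 itself, the target, averaged 4.48 ± 0.23 in mock control and 3.56 ± 0.04 in mock knockdown clones (SD, n = 3 each), without overlap (p = 0.1 by two-sided exact permutation, as low as 3 against 3 can go). limma did not call this difference (adjusted p = 0.276). After 5-aza-dC knockdown clone 2 at 4.31 lay among the control clones, at 4.06 to 4.42, by this brightest probe (A_33_P3295550). The other 2 TET1 probes put it below every treated control clone, at 1.02 against 1.99 to 2.37 (A_19_P00806490) and -1.74 against -0.77 to -0.61 (A_23_P322756). Of 9 colorectal epithelial markers, 4 (KRT8, KRT18, KRT20 and CDX2) were well above background on all 12 arrays, while CDH1 and LGALS4 were on none.

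Over all 12 arrays the 9 genes fell into 3 kinds by detection of their brightest probe. CDKN2A, RASSF1, RUNX3 and SOCS1 were well above background on all 12 arrays. RASSF2, HIC1 and MGMT were detected on 11, 3 and 2 arrays, of which 5, 0 and 2 were among the 6 mock arrays. CDKN2B and TIMP3 were detected on 0 arrays, with or without 5-aza-dC, which on these arrays means that no level could be measured and not that the RNA was absent. A brightest probe is used for each gene unless another is named, and signals of different probes are not compared with each other.

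**Figure D2:**
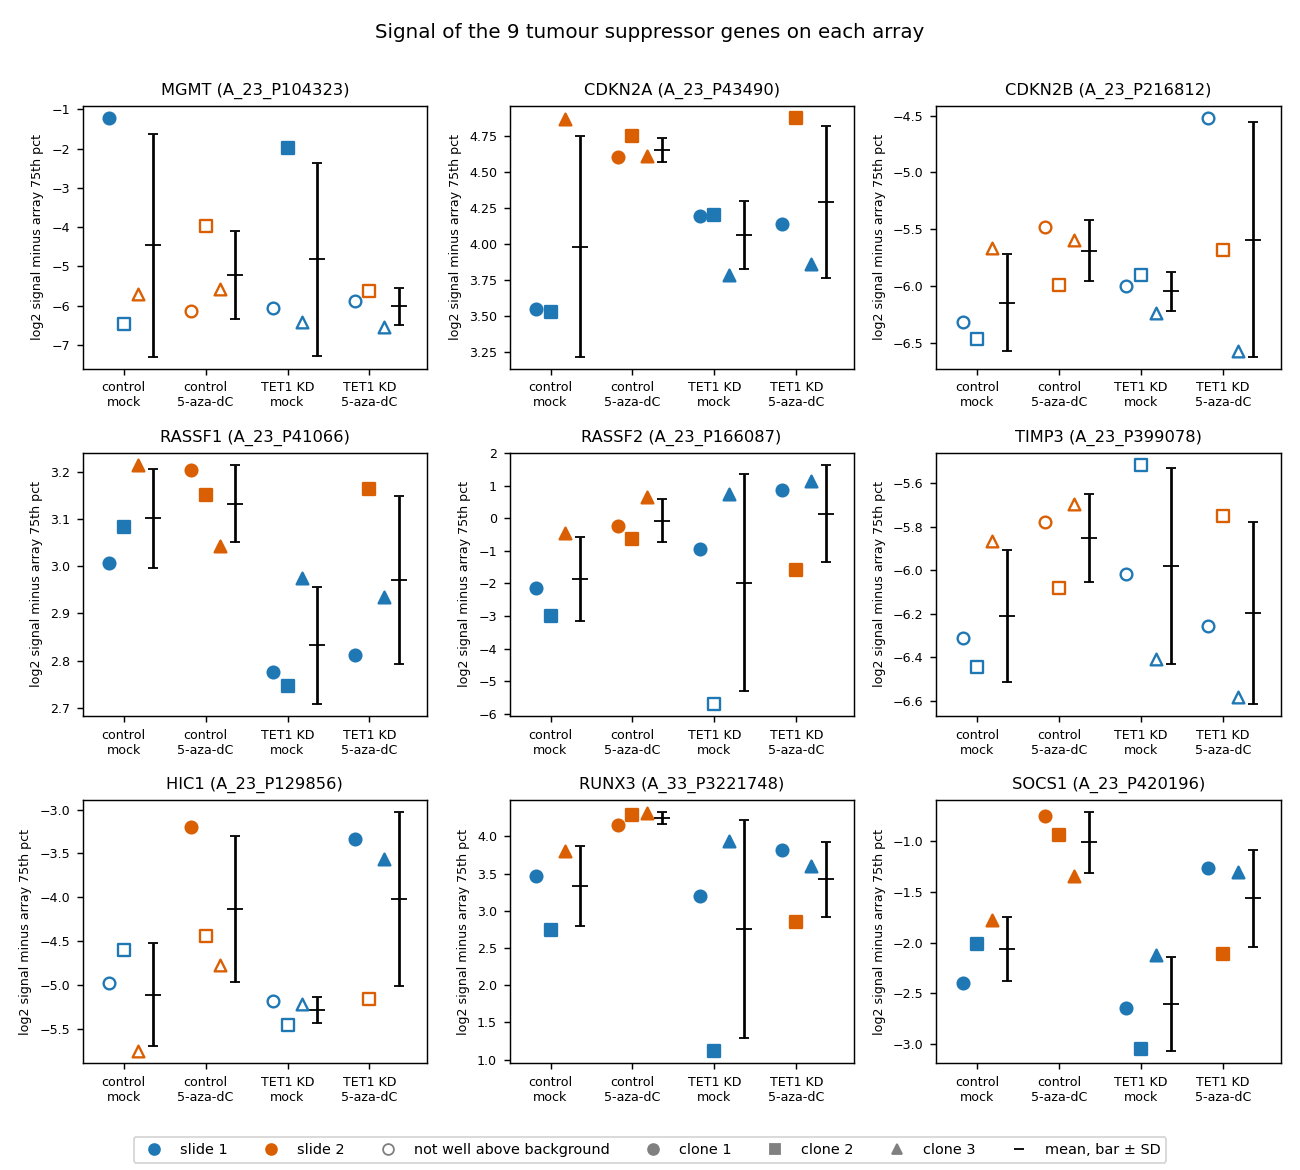
Centred log2 signal (vertical axis, log2 units relative to the 75th percentile of the array) of the brightest probe of each gene in the 4 groups (horizontal axis), with 1 point per array; colours give the slide, shapes the clone number, open points arrays on which the probe was not well above background, and bars the mean ± SD (n = 3). SOCS1 treated arrays lie above mock arrays within each clone type, HIC1 is filled on 3 treated arrays only, and CDKN2B and TIMP3 are open throughout. The vertical scales differ between panels.

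CDKN2A encodes p16INK4a and, from an alternative first exon, ARF. The 2 probes of the gene, annotated to transcript variants 3 (A_23_P43490) and 1 (A_33_P3411628), gave different pictures after 5-aza-dC. Signals of p16INK4a and ARF were not separated. The brightest probe (A_23_P43490, hg19 chr9:21968039-21968098) read 3.55, 3.53 and 4.86 in mock control clones 1, 2 and 3 and 4.19, 4.20 and 3.79 in mock knockdown clones. After 5-aza-dC it read 4.60, 4.75 and 4.61 in control and 4.14, 4.88 and 3.86 in knockdown clones. These values followed the slide: all 5 arrays of slide 2 lay between 4.60 and 4.88 and all 7 of slide 1 between 3.53 and 4.20. In the 3 clones with both arrays on 1 slide the mean change with 5-aza-dC was -0.08 ± 0.17 (SD, n = 3), against 0.98 in the other 3 clones. Over all clones the fitted log2 difference was 0.45 (SE 0.26, limma adjusted p = 0.255). The second probe (A_33_P3411628, chr9:21970901-21970960) lay between 1.67 and 2.24 on all arrays and gave a difference of -0.004 (95% interval -0.30 to 0.29, adjusted p = 0.985). Knockdown and control clones differed by 0.08 (95% interval -0.87 to 1.03) under mock treatment at the brightest probe, and the groups overlapped.

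CDKN2B, the neighbour of CDKN2A that encodes p15INK4b, had 1 probe (A_23_P216812, chr9:22008979-22009038). Its centred log2 signal lay between -6.57 and -4.52 over the 12 arrays. The highest value came from treated knockdown clone 1, and none of the 12 was well above background. No test was made.

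RASSF1 showed little movement in any comparison. Its brightest probe (A_23_P41066, chr3:50367320-50367379), described in the files as matching transcript variant C, read 3.01, 3.08 and 3.21 in mock control and 2.78, 2.75 and 2.97 in mock knockdown clones. The mock knockdown clones all lay below the mock control clones, by -0.27 (95% interval -0.69 to 0.15, limma adjusted p = 0.568; exact permutation test, two-sided, p = 0.1). On slide 1 alone, with 3 knockdown and 2 control clones, the difference was -0.21. After 5-aza-dC the control clones read 3.20, 3.15 and 3.04 and the knockdown clones 2.81, 3.16 and 2.93, and the groups overlapped. The change with 5-aza-dC over all clones was 0.09 (95% interval -0.17 to 0.34). The promoter known for methylation in tumours belongs to the A isoform of this gene. A second probe (A_33_P3316934, chr3:50375186-50375245), annotated to RASSF1 from an Ensembl transcript, was well above background only in mock control clone 1, at -3.71, while the other 11 arrays read -6.42 to -5.37.

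RASSF2 had the widest range over the 12 arrays among the 6 genes tested, and its 2 probes gave fitted differences of opposite sign with 5-aza-dC, the second from a signal that followed the slide. The brightest probe (A_23_P166087, chr20:4760783-4760842) read -2.13, -3.00 and -0.46 in mock control clones 1, 2 and 3. After 5-aza-dC these clones read -0.23, -0.65 and 0.64. Knockdown clones 1, 2 and 3 read -0.96, -5.70 and 0.73 under mock treatment and 0.87, -1.58 and 1.14 after the drug. All 6 clones thus had a higher signal after the drug, with changes from 0.40 in knockdown clone 3 to 4.12 in knockdown clone 2, whose mock array was not well above background, so that its change has no measured size. With that clone included, the mean change was 1.95 ± 1.27 (SD, n = 6 clones; exact sign-flip test, two-sided, p = 0.031, the smallest that 6 clones can give and unadjusted for the 9 genes examined). In the 3 clones with both arrays on 1 slide it was 1.11 ± 0.71 (SD, n = 3), higher in 3 of 3. The fit over all arrays did not call RASSF2 (1.95, SE 1.00, limma adjusted p = 0.204). Leaving out 1 clone at a time gave 1.45 to 2.38, the lowest without knockdown clone 2, and RASSF2 was called in none of these fits. With the clone as a replicate block it was called, with an adjusted p of 0.0371, and with clone and slide together no member gene was.

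The second RASSF2 probe (A_24_P288448, chr20:4773229-4773654), annotated from an Ensembl transcript, was detected on exactly the 7 arrays of slide 1, at -3.59 to -3.00, and on 0 of the 5 arrays of slide 2, at -5.91 to -4.30. Its fitted change with 5-aza-dC was -1.32 (SE 0.42, limma adjusted p = 0.0634). On slide 1 alone, knockdown clones 1 and 3, the clones with both arrays above background, changed by 0.43 and 0.19, in the direction of the brightest probe. Control clone 3, with both arrays on slide 2, was not above background on either. The part of the slide in this difference was not tested beyond these values.

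RUNX3, a runt-domain transcription factor in the TGF-beta pathway, was among the clearly detected genes, and treated control clones were the highest group. The brightest probe (A_33_P3221748, chr1:25227538-25227597) read 3.47, 2.74 and 3.80 in mock control and 4.16, 4.28 and 4.31 in treated control clones. The 2 control groups did not overlap, with a difference of 0.92 (SE 0.29, limma adjusted p = 0.119). In knockdown clones 1, 2 and 3 the mock values were 3.20, 1.11 and 3.94 and the treated values 3.81, 2.85 and 3.60. Knockdown clone 2 was the lowest on both of its arrays, and knockdown clone 3 was the only clone of 6 with a lower value after the drug. Over all clones the mean change was 0.79 ± 0.76 (SD, n = 6; exact sign-flip test, two-sided, p = 0.0625). It was 0.26 ± 0.52 (SD, n = 3) in the clones with both arrays on 1 slide and 1.32 in the other 3. The second probe (A_23_P51231, chr1:25226333-25226392) gave 0.80 over all clones, with 0.21 within slides. The files annotated both probes to transcript variant 1, and signal from the other start was not separated.

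Between clone types, RUNX3 was the member with the largest difference after 5-aza-dC. The treated knockdown clones, at 2.85 to 3.81, all lay below the treated control clones, at 4.16 to 4.31. The difference was -0.83 (95% interval -1.52 to -0.14, unadjusted p = 0.025, limma adjusted p = 0.226; exact permutation test, two-sided, p = 0.1), and the second probe gave -0.95 (adjusted p = 0.194). On slide 2 treated knockdown clone 2 differed by -1.40 from the mean of the 3 control clones. Without that clone the difference was -0.54 (limma adjusted p = 0.053). The treated knockdown arrays were then all on slide 1 and the treated control arrays all on slide 2, so clone type and slide cannot be told apart in this value.

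HIC1, a zinc-finger transcriptional repressor, was detected only after 5-aza-dC. Its probe (A_23_P129856, chr17:1962633-1962692) was well above background on 0 of 6 mock arrays, where it read -5.76 to -4.61. It was well above background on 3 of 6 treated arrays, at -3.19 in control clone 1, -3.34 in knockdown clone 1 and -3.56 in knockdown clone 3. Treated control clones 2 and 3 and knockdown clone 2 read -4.44, -4.78 and -5.16. In those 3 clones both arrays were below background, so their changes have no measured size. Knockdown clones 1 and 3, both of whose arrays were on slide 1, went from not above to above background within that slide. HIC1 entered the fit only through its treated arrays, and it was not called (limma adjusted p = 0.0735). The adjusted p was 0.0103 with slide as a block and 0.0438 with the clone as a replicate block. These values rest on signals below background in every mock array and on a probe that passed the filter through the treated group, so nothing is read from them, and no fold is given.

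SOCS1 rose with 5-aza-dC and was the member gene called by the fit over all clones. Its probe (A_23_P420196, chr16:11348384-11348443) read -2.40, -2.01 and -1.77 in mock control clones and -0.75, -0.93 and -1.34 after the drug. In knockdown clones 1, 2 and 3 it read -2.65, -3.05 and -2.12 under mock treatment and -1.27, -2.11 and -1.30 after the drug. Within each clone type the treated values lay above the mock values without overlap, although in knockdown clones the lowest treated value (-2.114, clone 2) was close to the highest mock value (-2.121, clone 3), and every array was well above background. The change was 1.05 (SE 0.22, 95% interval 0.56 to 1.54, limma adjusted p = 0.0132), a 2.07-fold higher signal. All 6 clones changed in this direction, by 0.43 to 1.64 (exact sign-flip test, two-sided, p = 0.031, unadjusted). In the 3 clones with both arrays on 1 slide the mean change was 0.88 ± 0.48 (SD, n = 3), against 1.22 in the others. SOCS1 was also called with slide as a block (1.15, adjusted p = 0.0349) and with the clone as a replicate block (1.05, adjusted p = 0.0151). With both as blocks it was 0.86 and not called (adjusted p = 0.107). The call was also lost without control clone 1 (adjusted p = 0.0854), without control clone 2 (0.0772) and without knockdown clone 1 (0.069).

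The mean change of SOCS1 was 1.05 ± 0.61 in control and 1.05 ± 0.30 in knockdown clones (SD, n = 3 clones each). In the clones with both arrays on 1 slide it was 0.43 in control clone 3 and 1.38 and 0.82 in knockdown clones 1 and 3, so the closeness of the means depends on clones measured across slides. With clone and slide as blocks the change was 0.43 in control and 1.10 in knockdown clones. This repeats the values of control clone 3 alone and of knockdown clones 1 and 3, since only clones with both arrays on 1 slide inform it. The difference between the mean changes of the clone types, over all their clones, was -0.006. Its 95% interval of -0.99 to 0.98 leaves room for a sizeable difference either way. The difference of knockdown from control clones was -0.55 under mock treatment (95% interval -1.27 to 0.18, limma adjusted p = 0.523) and -0.55 after 5-aza-dC (95% interval -1.29 to 0.18, adjusted p = 0.346), and the groups overlapped in each case. Within a slide it was -0.40 under mock treatment (3 knockdown and 2 control clones, slide 1) and -1.11 after the drug (knockdown clone 2 and 3 control clones, slide 2). Without knockdown clone 2 the treated difference was -0.28 (limma adjusted p = 0.372), but the treated clone types then lay on different slides, so clone type and slide cannot be told apart in it.

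MGMT, with the most CpG before its start, was not detected on any treated array. Its probe (A_23_P104323, hg19 chromosome 10, on 2 exons between 131506282 and 131557499) was well above background in mock control clone 1, at -1.22, and mock knockdown clone 2, at -1.99. The same 2 clones read -6.12 and -5.62 after 5-aza-dC, and the other 8 arrays lay between -6.54 and -3.96. The signal thus appeared in 1 clone of each type and did not follow a group. The probe did not reach the 3 arrays needed for a test. TIMP3, with 1 probe (A_23_P399078, chr22:33258540-33258599), lay between -6.58 and -5.52 on all arrays, never well above background.

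**Figure D3:**
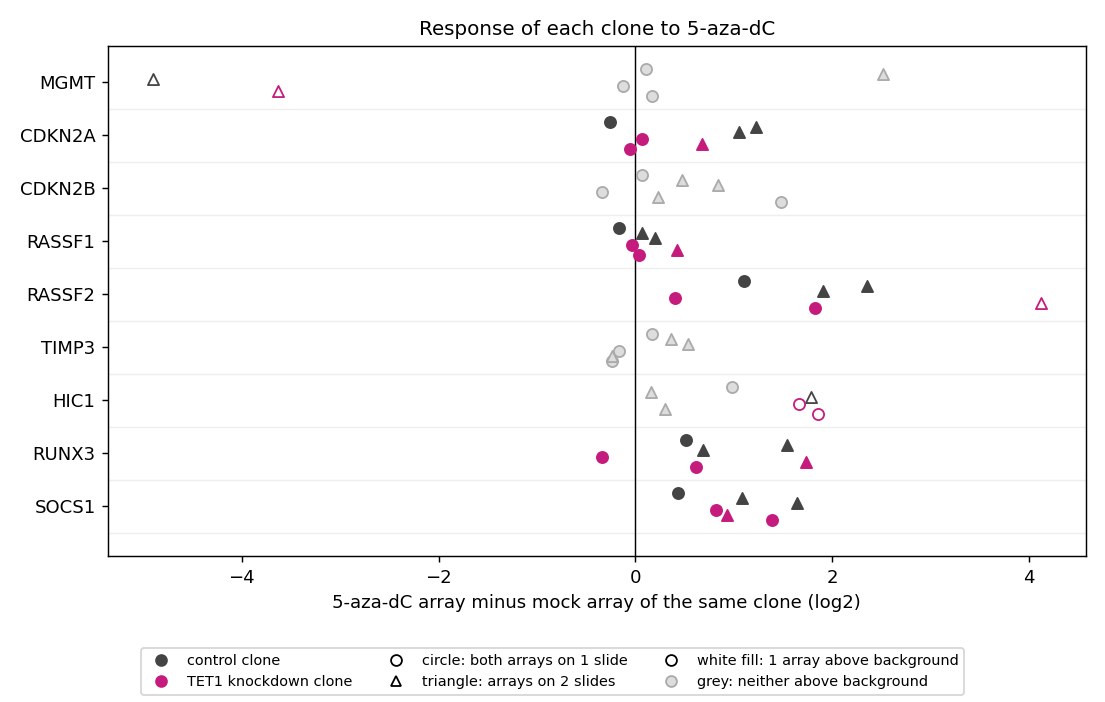
Change with 5-aza-dC in each clone (horizontal axis, centred log2 signal of the treated array minus that of the mock array) for the brightest probe of each gene (vertical axis); colours give the clone type, circles clones with both arrays on 1 slide, triangles clones with arrays on both slides, white fill a change with 1 array above background and grey fill a change with neither. SOCS1 and RASSF2 lie above 0 in all 6 clones, as does HIC1, for which 3 changes have neither array above background; the circles of CDKN2A and RASSF1 lie near 0.

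Across the comparisons, the call counts of the member genes were low. Between mock knockdown and mock control clones, 0 of the 5 genes tested were called at an adjusted p of 0.05, where 0.137% of all probes tested were called, and 0 had an unadjusted p below 0.05. After 5-aza-dC, 0 of 6 were called (all probes 0.096%), with RUNX3 alone below 0.05 before adjustment. With 5-aza-dC in control clones 0 of 5 were called (all probes 5.21%), although SOCS1, RUNX3 and RASSF2 were below 0.05 before adjustment, and in knockdown clones 0 of 5 (all probes 2.05%), with SOCS1 below 0.05. Over all 6 clones 1 of 6 was called (all probes 13.2%), a share close to the background, and HIC1 and SOCS1 were below 0.05 before adjustment. HIC1 is among the 6 only because of its treated arrays. Of the other 5 genes, RUNX3 had the middle difference, 0.79, against a median of -0.05 over all probes tested in the fit. RUNX3 also had the middle mean change in the clones with both arrays on 1 slide, 0.26, for which no median over all probes was computed. The interaction of clone type and 5-aza-dC called 0 of 6 (all probes 0.0367%), with differences from -0.44 to 0.33 and 0 below 0.05 before adjustment. With the clone as a replicate block RASSF2 and SOCS1 were called over all clones, as was HIC1 with the limit given above, and RASSF2 was called in control clones.

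**Figure D4:**
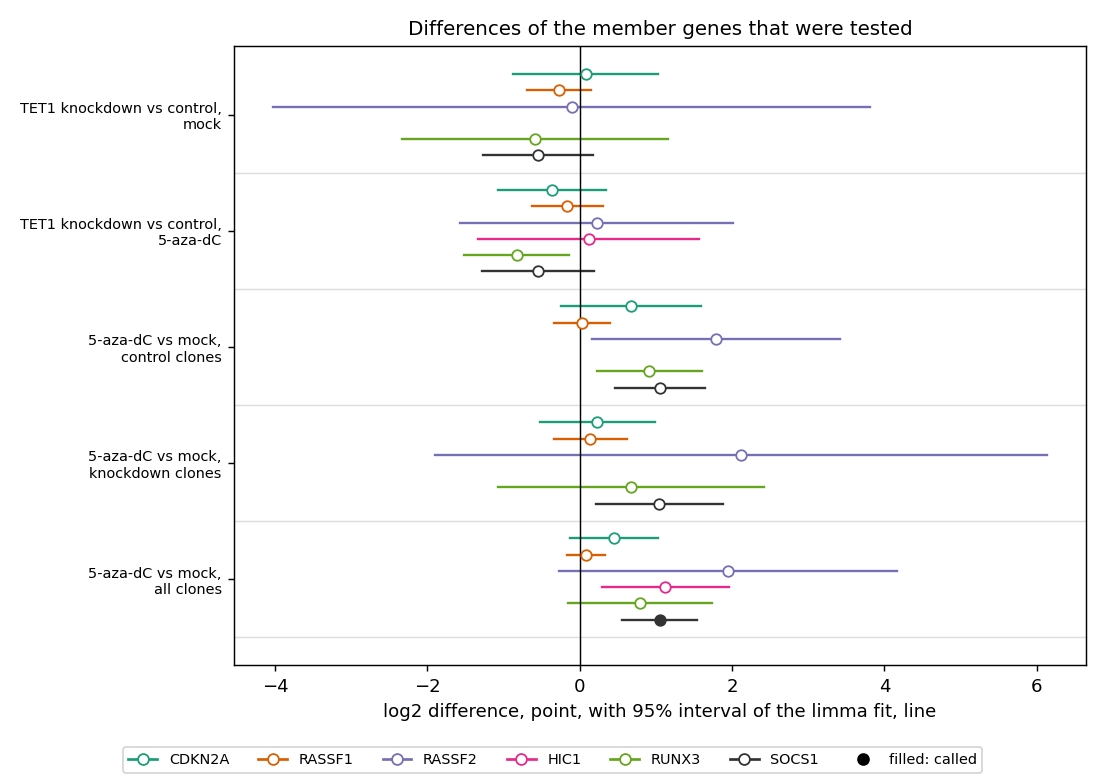
Log2 difference (horizontal axis, points) with the 95% interval of the limma fit (lines) for the member genes tested, in 5 comparisons (vertical axis); a filled point is a call at an adjusted p of 0.05. The only filled point is SOCS1 for 5-aza-dC over all clones, at 1.05, and the widest intervals belong to RASSF2.

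Partners and relatives of the 9 genes were followed by 7 lists holding 109 genes. Between clone types and in the interaction, 0 of the 76 to 83 list genes tested were called in any of the 3 comparisons (limma). With 5-aza-dC over all clones 8 were higher and 3 lower of 83 tested, 13.3%, beside 13.2% of all probes. The median over the 83 genes was -0.01. With slide as a block 8 of the 11 were still called. In control clones 8 of 78 were called (10.3%, beside 5.21% of all probes), of which 1 (LATS1) with slide as a block. In knockdown clones 2 of 80 were called (2.5%, close to the 2.05% of all probes), NDRG4 and STAT6, of which STAT6 with slide as a block. CACNA1G, THBD, RASSF4 and STAT6, above background on 0 mock arrays, are in these counts only through their treated arrays. MMP2, above background on 1 mock array, also passed the filter through the treated arrays.

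Among 30 other genes known for methylation in colorectal cancer, 15 were tested over all clones. NDRG4, used as a stool methylation marker, rose by 3.03 (SE 0.34, adjusted p = 0.000216). CACNA1G, a calcium channel gene of the methylator phenotype panel, was detected on 5 of 6 treated and 0 of 6 mock arrays. THBD, encoding thrombomodulin, was also on 5 and 0, and its call was lost with slide as a block. Both genes entered the fit only through their treated arrays, so nothing is read from their calls, and no fold is given. APC, the negative regulator of WNT signalling, fell by 0.83 (SE 0.16, adjusted p = 0.00872).

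For the G1 checkpoint list, CDKN2D, a relative of CDKN2A and CDKN2B that encodes p19INK4d, rose by 1.11 (SE 0.19, adjusted p = 0.00415), and 1 of 18 genes tested was called. Of 12 RASSF family and Hippo genes, RASSF5 rose by 1.48 (SE 0.27, adjusted p = 0.00566) and the kinase gene LATS1 fell by 1.00 (SE 0.15, adjusted p = 0.00182). RASSF4 was detected on 3 of 6 treated and 0 of 6 mock arrays. It entered the fit only through its treated arrays, so nothing is read from its call, and no fold is given.

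In the list of SOCS1 relatives and JAK-STAT genes, 2 of 14 were called. STAT6, the transducer of interleukin-4 signals, was detected on 6 of 6 treated and 0 of 6 mock arrays. Its signal was at least 13.8-fold higher after 5-aza-dC. STAT6 too entered the fit only through its treated arrays, so nothing is read from its call. SOCS6 fell by 0.46 (SE 0.13, adjusted p = 0.0384, and 0.0899 with slide as a block), and its groups overlapped. Of 6 TIMP and metalloproteinase genes tested, MMP2 was called, with 1 of 6 mock arrays above background, and its call was lost with slide as a block. It passed the filter through its treated arrays, so nothing is read from its call, and no fold is given. Of 8 genes tested in the RUNX and TGF-beta list and 10 in the list of HIC1 and MGMT partners, 0 were called, with medians of -0.05 and -0.12.

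Some cell type markers were called with the drug too, in a fit over all clones that called 13.2% of all probes. Results with slide as a block are not given for the markers. Over all clones 2 of 6 epithelial markers tested were called higher (EPCAM and KRT19). Of the markers of other cell types, 2 of 3 neuroendocrine markers tested were called higher (CHGA and ENO2). So were 2 of 4 fibroblast markers (COL1A1 and THY1), and 2 of 2 endothelial markers (CDH5 and VWF) were lower. KRT19, CHGA and THY1 were above background on 6, 4 and 3 arrays. Too few of these were mock arrays for a test between mock groups. These 3 genes passed the filter only with their treated arrays, so nothing is read from their calls, and no fold is given. VWF, above background on 7 arrays, had too few treated ones for a test between treated groups. The same limit holds for its call. The summed signal of 4 neuroendocrine markers, relative to the 75th percentile, was 0.372 to 0.603 in mock control and 0.132 to 0.903 in mock knockdown clones. It was 4.26 to 8.32 in treated control and 2.59 to 3.47 in treated knockdown clones. The sum over 6 fibroblast markers was 0.432 to 2.63 and 0.453 to 1.2 in mock control and mock knockdown clones and 1.64 to 4.27 and 1.44 to 2.14 in the treated control and knockdown clones, with COL1A2 never above background. The 3 endothelial markers summed to at most 0.327 on every array, PECAM1 never above background. INSM1 was not above background on any array. The part of these markers in the changes of SOCS1, RASSF2 and HIC1 was not tested. More RNA per cell and more cells with the RNA cannot be told apart in such bulk samples.

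As a description of pattern, the 12427 gene symbols detected on all 12 arrays were ranked by Pearson correlation over the 12 arrays with each of the 4 member genes detected throughout. The nearest to SOCS1 were NRIP3 (r = 0.959) and TPPP3 (0.949), to RUNX3 RGAG4 (0.956) and ADD2 (0.955), to CDKN2A GLRX5 (0.975) and SMS (0.97), and to RASSF1 C2CD2L (0.936) and FGFR1 (0.932). The arrays share slides, clones and treatment, and each of these genes was picked as the highest of many.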

How the data were processed

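RNA of 12 samples in 4 groups of 3 was measured on Agilent arrays. In the scanner output that the authors deposited, each spot has an intensity, obtained with Agilent Feature Extraction (version 10.7 in the submitters' processing notes) with background correction per the file headers and no scaling between arrays. The rounded intensity values of the series table differed from it by at most 0.497%. Later steps of the authors were run in GeneSpring, and their scaling there is not given in the sources used here.

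Control spots and 268 to 395 outlier spots per array were left out, spots of a probe were averaged on the log2 scale, and each array was centred on its 75th percentile over 50599 distinct probes. Symbols and hg19 positions are those of the files. Testing needed 3 or more arrays of the fit with the probe well above background, judged on 50% or more of its spots. Each comparison was fitted with limma 3.58.1 (lmFit and eBayes) in R 4.3.3 on the arrays of its groups, the effect over all clones and the interaction on all 12 arrays. Two-sided p-values were adjusted (Benjamini-Hochberg) across every probe in the fit, and 0.05 was the threshold. A gene counts as called by its brightest probe. Changes per clone were tested by exact sign flips over 6 clones for 9 genes. Where a group had no array above background, a fold is a lower bound against the lowest signal above background. It is given only if every array of the other group was above background. Promoter windows came from the RefSeq table, which was not matched to the hg19 positions. The fits were tested on simulated data with independent errors and without slide or clone effects, so their behaviour under such effects was not tested.

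The labels give the same clone number with and without 5-aza-dC. Deviations from the group means of the mock and treated array of a clone correlated at 0.213 to 0.525 over 27200 probes. Correlations between arrays of different clones were not computed for comparison. The clone was used as a block in alternative fits of the drug comparisons. The genes named are the 9 members, TET1 as the check of the labels, the list genes called and the 2 symbols most like each member in pattern. Some cell type markers and the leukocyte list are not reported here. The members and lists were chosen with earlier results of these data known. The alternatives were other scalings, background correction with normexp (offset 50), the deposited table, other filters, slide and clone blocks, leaving out each clone, the methods' t-test on the same values, and other probes of a gene.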

Additional observations from a re-analysis of the deposited data

How the results depend on the processing

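Of 493 recomputed gene differences, 55 changed sign, and none of these was called on either side. Member genes called over all clones with 5-aza-dC numbered 1 under every scaling, background correction, filter and the deposited table (SOCS1 each time, 0.51 with normexp to 1.05). The number was 2 with slide as a block, 3 with the clone as a replicate block and 0 with both; HIC1, never above background on a mock array, is in the counts of 2 and 3. In control clones the replicate block gave 1 (RASSF2). The block changed no other call. Leaving out 1 clone gave 0 to 2 over all clones, 0 to 3 in control clones (3 without clone 3, CDKN2A, RASSF2 and SOCS1) and 0 to 1 between treated clones (CDKN2A at -0.655, adjusted p = 0.0373, without knockdown clone 2, where 7792 probes were called against 24). Without knockdown clone 2, HIC1 was called over all clones as well. With the array median as the scale, all differences for 5-aza-dC over all clones shifted by -0.24. Without control clone 3, the mock control arrays were all on slide 1 and the treated control arrays all on slide 2. Without knockdown clone 2, the treated knockdown arrays were all on slide 1 and the treated control arrays all on slide 2. The drug in the first case, and the clone type between treated clones in the second, cannot be told apart from the slide. The cause of the other changes was not tested. Signal over background limits HIC1, MGMT, CDKN2B, TIMP3 and mock RASSF2 in knockdown clone 2; HIC1 moved to 0.159 with normexp.

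Signs changed as follows. Between mock clone types, RASSF2 was 0.432 with normexp, 0.592 with slide as a block and 0.326 at its second probe, and leaving out 1 clone gave -1.463 to 1.755 for RASSF2, -0.146 to 0.521 for CDKN2A and -1.18 to 0.233 for RUNX3. Between treated clone types, slide as a block gave 0.223 for CDKN2A, 0.032 for RASSF1, -1.501 for RASSF2 and -1.026 for HIC1. These 4 values are knockdown clone 2 alone against the 3 control clones on slide 2. The second CDKN2A probe gave 0.153, and leaving out 1 clone gave -0.276 to 1.082 for RASSF2 and -0.224 to 0.687 for HIC1. For 5-aza-dC in control clones, RASSF1 was -0.009 with normexp, -0.184 with the array median, -0.082 with slide, -0.171 with clone and slide and -0.051 to 0.133 leaving out 1 clone, and CDKN2A -0.211 with slide and -0.256 with clone and slide. The values with clone and slide are those of control clone 3 alone. In knockdown clones, the array median gave -0.035 for CDKN2A and -0.127 for RASSF1, slide -0.063 for CDKN2A, clone and slide -0.002 for RASSF1, leaving out 1 clone -0.002 to 0.227 for RASSF1, and the second probes -0.076 for CDKN2A and -0.653 for RASSF2. Over all clones, RASSF1 was -0.155 with the array median, -0.03 with slide and -0.096 with clone and slide, CDKN2A -0.1 with slide, -0.064 with clone and slide and -0.004 at its second probe, and RASSF2 -1.317 at its second probe. For the interaction, RASSF2 was -0.203 with normexp, HIC1 -0.152 with slide, and RUNX3 and SOCS1 0.122 each with clone and slide. Leaving out 1 clone gave -0.033 to 0.196 for RASSF1, -0.673 to 1.186 for RASSF2, -0.112 to 0.782 for HIC1, -0.776 to 0.259 for RUNX3 and -0.316 to 0.289 for SOCS1.

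Over all probes the calls under the alternatives ranged from 4 to 110 between mock clone types (34 as reported), 0 to 7792 between treated ones (24), 0 to 5915 in control clones (1283; 0 with clone and slide), 50 to 747 in knockdown clones (520), 1446 to 8546 over all clones (3612; 8546 with the array median) and 1 to 14 for the interaction (10). The methods' t-test after Benjamini-Hochberg adjustment called 0 member genes in each of the 4 comparisons of 2 groups.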
